A study of Rattus norvegicus with 241 samples.

Results

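Luminal cells of the mammary gland were compared between 3 rats given a TGFβ receptor inhibitor (TGFBRi) and 3 rats given vehicle, all of which carried mammary tumors at the time of collection. These 6 RNA-seq libraries were chosen by their labels alone, as the libraries of luminal cells from glands labelled normal in tumor-bearing, carcinogen-treated Sprague Dawley rats, and they are 6 of 202 bulk samples and of 241 samples in the series. Both groups were virgin female Hsd:Sprague Dawley SD rats. The treated rats received the TGFBRi LY2157299 (galunisertib) by gavage at 75 mg/kg, 2 times a day for 10 days from 21 days of age, and the controls received the vehicle on the same schedule. All 6 rats were then injected intraperitoneally with the mammary carcinogen NMU (N-nitroso-N-methylurea) in 1 dose, at 50 mg/kg, and were killed 87 days later. Each library came from 1 rat. The cells had been sorted as CD24+CD29low after removal of CD31+ and CD45+ cells, and "normal" describes a gland of a rat that also bore tumors. For context, the luminal cells of 3 tumor-free TGFBRi rats from the same NMU experiment, the basal cells of the same 9 rats, the luminal cells of 8 young SD rats taken on day 0 after the last dose (4 per arm, first dosed at 24 days of age) and 6 samples of EPCAM+ tumor cells were used.

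Luminal cells line the ducts and alveoli of the gland. They comprise hormone-sensing mature cells, which carry estrogen and progesterone receptors, and progenitors that express KIT and ELF5 and can turn on milk genes, whereas the contractile basal cells beneath them carry KRT5, KRT14 and ACTA2. TGFβ ligands bind the receptor kinases TGFBR2 and TGFBR1, which phosphorylate SMAD2 and SMAD3, and in mammary epithelium this signal is known for restraining proliferation and alveolar differentiation. LY2157299 blocks the TGFBR1 kinase.

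Before the groups were compared, the libraries were compared with each other, and 2 of the 3 vehicle libraries stood apart. Values throughout are counts divided by the authors' DESeq2 size factors (normalized counts), and log2 levels are log2(normalized count + 1). The luminal libraries of vehicle rats 1, 2 and 3 held 6952044, 14808084 and 21445893 reads, against 12846371 to 21113833 in the tumor-bearing TGFBRi rats and 20003972 to 21173594 in the tumor-free ones. In these vehicle libraries 1 read stands for 4.00, 2.16 and 0.86 normalized counts, against 0.82 to 1.34 in the tumor-bearing TGFBRi rats and 0.86 to 1.01 in the tumor-free ones. Low values and summed levels of vehicle rats 1 and 2 are to be read with that scaling in mind. Across the 14128 genes tested, the log2 levels of vehicle rat 1 correlated with those of the 6 treated libraries at r = 0.827 to 0.847 and those of vehicle rat 2 at 0.868 to 0.894, while vehicle rat 3 reached 0.920 to 0.959. The treated libraries correlated with each other at 0.885 to 0.961, so vehicle rat 3 lay among them and vehicle rats 1 and 2 lay outside or at the edge of that range. Ribosomal protein genes took 20.5% of all normalized counts in vehicle rat 1 and 12.9% in vehicle rat 2, against 4.58% in vehicle rat 3 and 3.19% to 7.31% in the 6 treated libraries. Genes of the respiratory chain took 7.68%, 3.77% and 1.40% in vehicle rats 1, 2 and 3 and 1.27% to 2.59% in the treated libraries. In the basal libraries of the same 9 rats the ribosomal protein share was 1.85% to 6.36%, and those of vehicle rats 1 and 2 (3.47% and 3.21%) lay within that range. The basal libraries of the tumor-bearing TGFBRi rats had the highest shares, at 4.90%, 4.69% and 6.36%, against 1.85% to 3.47% in the other basal libraries. Their respiratory chain shares were 2.59%, 3.35% and 3.27%, against 1.07% to 1.61%. The part of these differences between libraries in the gene-level results was not tested. The counts of called genes, the called genes and the gene list medians are therefore also given without the luminal libraries of vehicle rats 1 and 2. That comparison rests on vehicle rat 3 alone, whose spread is assumed to be that of the other groups.

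**Figure D1:**
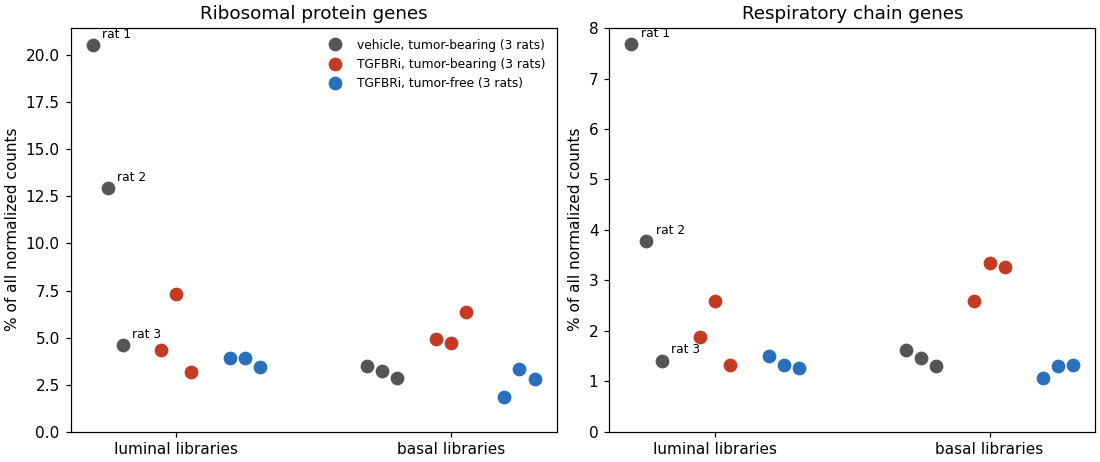
Share of all normalized counts taken by ribosomal protein genes (left) and respiratory chain genes (right), in percent, with 1 point per library and the luminal and basal libraries of the 9 NMU-treated rats side by side. Vehicle rats 1 and 2 are the 2 highest luminal libraries in both panels (20.5% and 12.9% ribosomal protein, 7.68% and 3.77% respiratory chain), whereas their basal libraries are not set apart. Among the basal libraries, those of the tumor-bearing TGFBRi rats are the highest in both panels (4.69% to 6.36% and 2.59% to 3.35%).

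The sorted fraction carried luminal markers. In differences taken within the 6 tumor-bearing rats, 10 of 11 luminal epithelial markers passed the test as higher in luminal than in basal cells and all 12 basal markers as lower, where 10.6% of 14312 genes were called higher and 9.65% lower in luminal cells. KRT18 was higher in luminal cells by 3.29 ± 0.27 (SE) on the log2 scale and KRT5 differed by -6.22 ± 0.32. KRT14 was nonetheless present in every luminal library, at 3691, 8611 and 6749 in the vehicle rats and 4384, 7397 and 5283 in the tumor-bearing TGFBRi rats. The mature luminal markers ESR1 and PGR were low: ESR1 ran from 2.67 to 53.6 normalized counts in the 6 libraries. Markers of other cells also varied. The summed level of 10 fibroblast genes ran from 6678 to 19779.8 in the vehicle rats and from 7856 to 77815 in the tumor-bearing TGFBRi rats, and that of 8 adipocyte genes from 16944 to 108837 and from 2562 to 15582. For 14 leukocyte genes the sums were 884 to 3640 in the vehicle rats and 409.8 to 1298 in the treated rats, for 11 endothelial genes 5924 to 8665 and 1228 to 7252, and for 8 muscle genes 38.9 to 1097 and 23.8 to 102.9. The defining adipocyte marker ADIPOQ was at or near 0, at 12.01, 0 and 3.46 in the vehicle rats and 0, 0 and 8.05 in the tumor-bearing TGFBRi rats, and most of the adipocyte sum came from FABP4. In bulk samples, fewer cells of a type and less RNA per cell cannot be told apart.

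In tumor-bearing rats, earlier TGFBRi treatment went with higher luminal levels of 26 genes and lower levels of 4, among 14128 genes tested with limma (Benjamini-Hochberg adjusted p up to 0.05, passed by 0.184% and 0.0283% of genes). Among the raised genes were receptors (NOTCH3, KIT, LRP5, TYRO3), complement C4, matrix and proteoglycan genes (COL16A1, GPC1, XYLT2), peptidases (ACE, ECE1), the oxidase DUOX1, and genes of fatty acid and one-carbon metabolism (SLC27A1, ACACB, SARDH). The 4 lowered genes were NPW, PDLIM5, FABP5 and DDIT3. Raised genes were 2.03 to 3.38 log2 units higher and lowered genes differed by -3.31 to -2.18, with standard errors of 0.40 to 0.63 and 0.43 to 0.58. The median log2 fold change of all genes was -0.26 on the deposited scaling and -0.17 after TMM scaling, and fold changes are to be read against that shift. Group values did not overlap for any of these 30 genes. Vehicle rat 3 was the vehicle rat nearest to the treated rats in 23 of the 26 raised and 4 of the 4 lowered genes. Across all genes, 8.16% were higher and 8.22% lower in every tumor-bearing TGFBRi rat than in every vehicle rat. At an unadjusted p under 0.05, which 16.2% of genes reached, 7.46% of all genes were higher and 8.73% lower. The tools differed: edgeR called 261 genes (1.85%), of which 125 were higher, and DESeq2 called 1077 (7.62%), of which 437 were higher. Of the 26 raised genes edgeR called 25 and DESeq2 26, and both called all 4 lowered ones. Without vehicle rats 1 and 2, which leaves vehicle rat 3 alone, the median log2 fold change of all genes was 0.05. Leaving out 1 library at a time moved the count from 30 to 1522 without vehicle rat 3, to 0 without vehicle rat 1, vehicle rat 2, tumor-free rat 2 or treated rat 1, to 1 and 3 without tumor-free rats 1 and 3, and to 13 and 39 without treated rats 2 and 3. Without vehicle rats 1 and 2 the 30 genes kept their direction, as groups without overlap must, but were smaller in 28 cases. The differences were then 0.94 to 3.16 for the raised genes and -1.77 to -1.18 for the lowered genes.

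NOTCH3, a receptor of the Notch pathway that governs luminal fate, had the smallest p of all genes. It stood at 204, 97.1 and 125 in the vehicle rats and 1015, 1640.0 and 868 in the tumor-bearing TGFBRi rats (replicates 1 to 3 in order, here and below), log2 fold change 3.05 ± 0.50 (SE), adjusted p = 0.0322. All 3 vehicle rats were at or below 204 and all 3 treated rats at or above 868, and the difference was 3.16 against vehicle rat 3 alone. LRP5, a Wnt co-receptor, was at 216, 147 and 245 in the vehicle rats and 726, 1207 and 1477 in the tumor-bearing TGFBRi rats (log2 fold change 2.45 ± 0.46 (SE), adjusted p = 0.0365), and differed by 2.15 from vehicle rat 3. KIT, the stem cell factor receptor that marks luminal progenitors, was at 168, 198 and 603 in the vehicle rats and 2007, 813 and 3162 in the tumor-bearing TGFBRi rats (log2 fold change 2.66 ± 0.53 (SE), adjusted p = 0.0385). For KIT, vehicle rat 3 was 603 and the lowest treated rat 813, so the gap was narrower, and the difference from vehicle rat 3 was 1.52. TYRO3, a receptor kinase, was higher by 2.09 (adjusted p = 0.0476), or by 1.46 against vehicle rat 3.

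The called genes are described here in an order chosen after their values were seen, and no theme was tested among them. SLC4A2, an anion exchanger, was at 192, 79.8 and 244 in the vehicle rats and 1243, 1565 and 731 in the tumor-bearing TGFBRi rats (log2 fold change 2.85 ± 0.47 (SE), adjusted p = 0.0322), with a difference of 2.20 from vehicle rat 3. NOTCH3 had the larger log2 fold change of NOTCH3 and SARDH with edgeR, DESeq2 and against vehicle rat 3. SARDH, the mitochondrial sarcosine dehydrogenase, showed the largest limma log2 fold change of the called genes, from 32.02, 17.3 and 144 to 333, 766 and 386 (log2 fold change 3.38 ± 0.63 (SE), adjusted p = 0.0365), but vehicle rats 1 and 2 held only 8 reads of it each and the difference from vehicle rat 3 was 1.67. ACE, the angiotensin-converting enzyme, was at 164, 198 and 852 in the vehicle rats and 1649.8, 4986 and 1897 in the tumor-bearing TGFBRi rats (log2 fold change 3.04 ± 0.56 (SE), adjusted p = 0.0370), and ECE1, which processes endothelin, was higher by 2.45. In both of these, vehicle rat 3 was the highest vehicle rat by a wide margin, and the differences from it were 1.55 and 1.23. PFAS, an enzyme of purine synthesis, was at 60.04, 36.7 and 102.9 in the vehicle rats and 746, 286 and 337 in the tumor-bearing TGFBRi rats (2.75, adjusted p = 0.0370; 2.01 against vehicle rat 3). The kinase gene RPS6KA4 was higher by 2.03 (adjusted p = 0.0370), and by 2.09 against vehicle rat 3. The vehicle rats lay close together for RPS6KA4, at 328, 235 and 260.2 against 1033, 1521 and 873. DUOX1, a dual oxidase that makes hydrogen peroxide at epithelial surfaces, was at 909, 1223 and 1391 in the vehicle rats and 5520.4, 3888 and 5208 in the tumor-bearing TGFBRi rats (log2 fold change 2.06 ± 0.40 (SE), adjusted p = 0.0370), with a difference of 1.79 from vehicle rat 3. The further raised genes SLC27A1, DCTN1, MKNK2, ACACB, ATP13A2, NT5DC2, SLC25A23 and ATG9A were higher by 2.03 to 2.52 log2 units, and by 0.94 (SLC25A23) to 2.27 (ATP13A2) against vehicle rat 3.

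Of the other called genes, COL16A1, a fibril-associated collagen, stood at 668, 658 and 854 in the vehicle rats and 3538, 5005 and 2423 in the tumor-bearing TGFBRi rats (log2 fold change 2.28 ± 0.40 (SE), adjusted p = 0.0365), with a difference of 2.03 from vehicle rat 3 alone. GPC1, a cell-surface heparan sulfate proteoglycan, was at 312, 328 and 948 in the vehicle rats and 1987, 4482 and 2177 in the tumor-bearing TGFBRi rats (log2 fold change 2.54 ± 0.46 (SE), adjusted p = 0.0365), and XYLT2, which starts glycosaminoglycan chains, was higher by 2.56 (adjusted p = 0.0370). COL16A1 and GPC1 were each lower in luminal than in basal cells of these rats, with log2 differences of -2.46 and -2.93. Of the 26 raised genes 17 were lower in luminal than in basal cells and 9 higher. Limma called 6 of them lower and 5 higher, beside 9.65% and 10.6% of all genes. Their median was -0.79, beside 0.31 for all genes. The fibroblast sum was higher in 2 of the 3 treated rats than in the vehicle rats. Of 10 fibroblast genes 7 were higher, and the groups overlapped for all 10. None was called by limma or edgeR and 1 by DESeq2, beside 7.62% of all genes. The summed level of the 12 basal markers was 16974 to 22478 in the treated and 17897 to 28887 in the vehicle rats. Of these markers 3 were higher and 9 lower, and none was called by limma, edgeR or DESeq2. Without overlap 1 was higher and 2 were lower, beside 8.16% and 8.22% of all genes. At an unadjusted p under 0.05 with limma 2 were higher and 0 lower, beside 7.46% and 8.73% of all genes. Their median was -0.36 with limma, 0.00 with edgeR and -0.06 with DESeq2. The part of fibroblast and basal RNA in these results was not tested. Complement C4B was at 1057, 1195 and 5462 in the vehicle rats and 14161, 8638 and 16084 in the tumor-bearing TGFBRi rats (log2 fold change 2.72 ± 0.54 (SE), adjusted p = 0.0370) and C4A at 1373, 1666 and 5973 in the vehicle rats and 17026, 11193 and 14769 in the tumor-bearing TGFBRi rats (log2 fold change 2.56 ± 0.50 (SE), adjusted p = 0.0370). C4A and C4B are near-identical copies, and how counting divided reads between them is uncertain, so the 2 entries among the 26 raised genes are not independent of each other. Their vehicle rat 3 lay well above the other two, and the differences from it were 1.20 and 1.24. XYLT2 was at 72.1, 145 and 258 in the vehicle rats and 841, 982 and 684 in the tumor-bearing TGFBRi rats. The differences of GPC1 and XYLT2 from vehicle rat 3 were 1.502 and 1.68. The transmembrane protein gene TMEM132A was at 857, 481 and 1120.1 in the vehicle rats and 4371, 11258 and 3099 in the tumor-bearing TGFBRi rats (2.79, adjusted p = 0.0365), with a difference of 2.25 from vehicle rat 3. DEF8 was at 96.1, 23.7 and 143 in the vehicle rats and 599, 677 and 343 in the tumor-bearing TGFBRi rats (2.88, adjusted p = 0.0462), with vehicle rat 2 the lowest and a difference of 1.84 from vehicle rat 3.

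The 4 lowered genes differed in how far they rested on vehicle rats 1 and 2. NPW, the precursor of neuropeptide W, stood at 2678, 2794 and 478 in the vehicle rats and 218, 166 and 98.9 in the tumor-bearing TGFBRi rats (log2 fold change -3.31 ± 0.58 (SE), adjusted p = 0.0365). PDLIM5, a PDZ and LIM domain scaffold protein, was at 9747, 3301 and 1379 in the vehicle rats and 589.6, 407 and 447 in the tumor-bearing TGFBRi rats (log2 fold change -2.90 ± 0.52 (SE), adjusted p = 0.0365). FABP5, a fatty acid binding protein, was the most abundant of the 4, at 229518, 313183 and 63416 in the vehicle rats and 29420.2, 26475 and 28351 in the tumor-bearing TGFBRi rats (log2 fold change -2.56 ± 0.54 (SE), adjusted p = 0.0477). Vehicle rat 3 lay between the other vehicle rats and the treated rats in these genes, and the differences from it were -1.64, -1.54 and -1.18. FABP4, the fat cell counterpart of FABP5 and one of the adipocyte markers, was lower in the same rats, at 46022, 102841 and 15919 in the vehicle rats and 14157, 2214 and 5543 in the tumor-bearing TGFBRi rats (-2.92, adjusted p = 0.113). The summed level of adipocyte genes given above was also lower, but most of it was FABP4, so it is no separate observation. ADIPOQ was at or near 0 in both groups. The part of adipocyte RNA in the FABP5 result was not tested. DDIT3, which encodes the stress-induced transcription factor CHOP, was more even, at 2021, 3044 and 1615 in the vehicle rats and 549, 304 and 635 in the tumor-bearing TGFBRi rats (log2 fold change -2.18 ± 0.43 (SE), adjusted p = 0.0370), with a difference of -1.77 from vehicle rat 3.

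**Figure D2:**
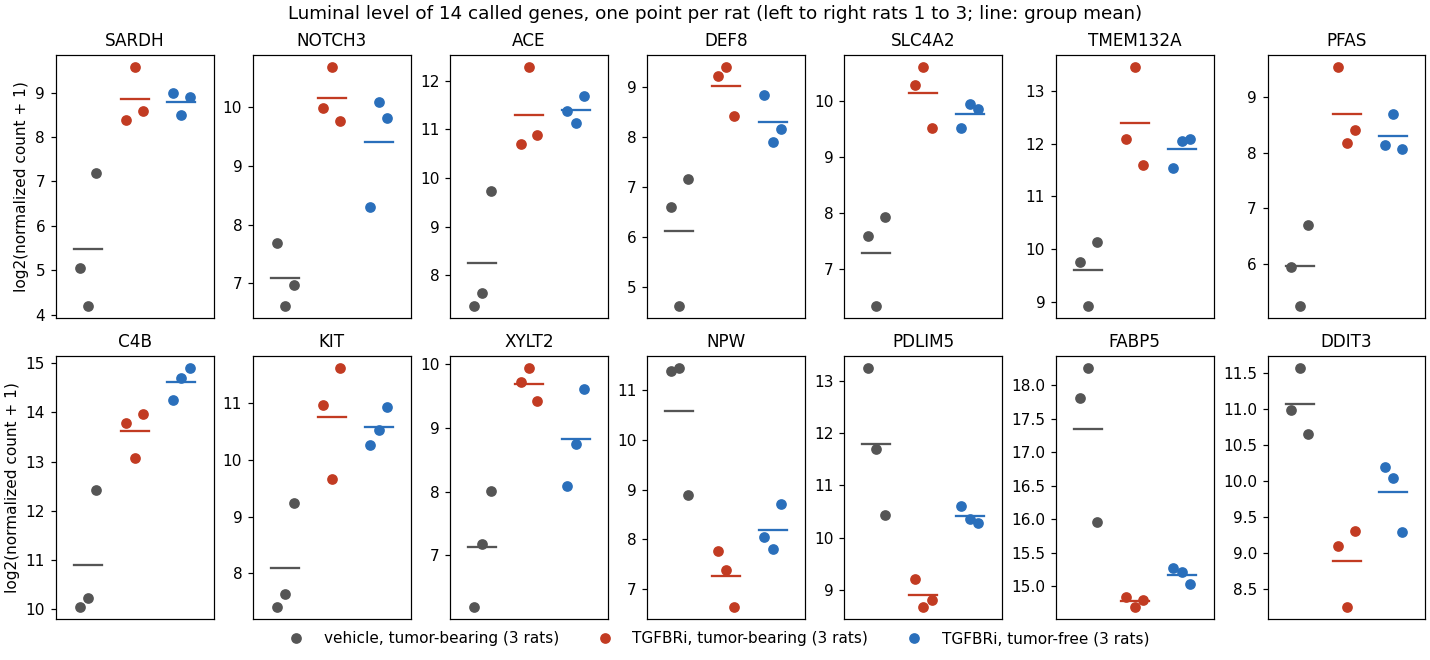
Log2(normalized count + 1) of 14 called genes in luminal cells, 1 point per rat and a line at the group mean, for vehicle tumor-bearing, TGFBRi tumor-bearing and TGFBRi tumor-free rats. The tumor-bearing groups do not overlap in any panel, and vehicle rat 3 is the vehicle rat nearest to the treated rats in all panels but NOTCH3.

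DDIT3 belongs to the integrated stress response, in which ATF4 turns on amino acid and redox genes. Of 16 genes on that list, 1 was called by limma as lower, beside 0.0283% of all genes, 12 were lower and 6 were lower without overlap, beside 8.22% of all genes. The list's median log2 fold change was -0.63, beside -0.26 for all genes, and it was -0.95 against vehicle rat 3 alone, beside 0.05. The endothelium and adipocyte lists had medians of -0.87 and -1.33, and of -1.32 and -0.74 against vehicle rat 3. A link between these lists was not tested. CHAC1, a glutathione-degrading enzyme, stood at 3639, 2682 and 5432 in the vehicle rats and 1460.0, 538 and 1832 in the tumor-bearing TGFBRi rats (log2 fold change -1.73 ± 0.47 (SE), adjusted p = 0.0914). MTHFD2, a mitochondrial folate enzyme, was at 1105, 1413 and 1359 in the vehicle rats and 668, 169 and 898 in the tumor-bearing TGFBRi rats (adjusted p = 0.162). The cystine transporter gene SLC7A11 was at 348, 162 and 173 in the vehicle rats and 81.6, 36.9 and 97.7 in the tumor-bearing TGFBRi rats (adjusted p = 0.161). ATF4 itself differed little, at 28809, 50291 and 40289 in the vehicle rats and 27710.2, 28759 and 27725 in the tumor-bearing TGFBRi rats (-0.47, adjusted p = 0.625), and its highest treated and lowest vehicle values nearly met. PHGDH, the first enzyme of serine synthesis, went the other way, at 1117, 1131 and 856 in the vehicle rats and 1841, 4767 and 2138 in the tumor-bearing TGFBRi rats (1.37, adjusted p = 0.129). None of these list members other than DDIT3 passed the limma test. DESeq2 called DDIT3, CHAC1 and SLC7A11 as lower and PHGDH as higher, beside 7.62% of all genes in either direction.

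**Figure D3:**
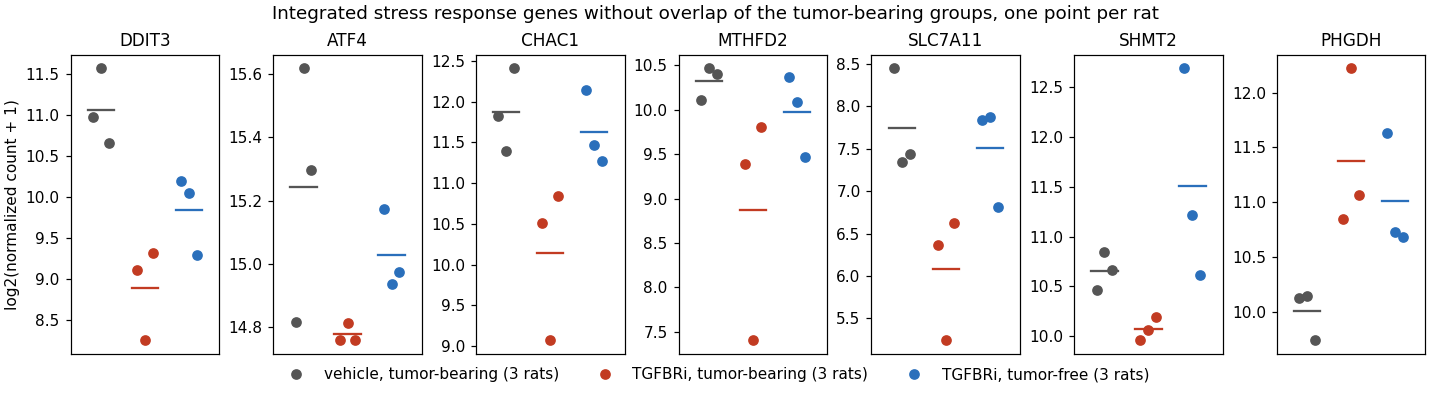
Log2(normalized count + 1) of the 7 integrated stress response genes whose tumor-bearing groups do not overlap, 1 point per rat with group means. DDIT3, ATF4, CHAC1, MTHFD2, SLC7A11 and SHMT2 are lower and PHGDH is higher in the TGFBRi tumor-bearing rats; only DDIT3 passed the limma test.

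Of the 10 genes per direction with the smallest unadjusted p among well expressed genes without overlap, all 10 higher genes were called, but 6 of the 10 lower genes missed the threshold. These were the MIR22 row (-2.38, adjusted p = 0.0508), UTP23 (-2.18), CWC25 (-2.13), SEC62 (-2.18), TIMM8A1 (-2.11) and the small heat shock protein gene CRYAB (-2.53, adjusted p = 0.0598). MIR22 stood at 949, 1020.5 and 311 in the vehicle rats and 164, 109.8 and 117 in the tumor-bearing TGFBRi rats, with vehicle rat 3 again nearest to the treated rats. The libraries were made from cDNA of polyadenylated RNA, so this row counts reads over the microRNA precursor within longer transcripts and is not a level of the mature microRNA. RefSeq (GRCr8) gives its mature products as follows, with the seed, bases 2 to 8, in capitals; they are shown so that the row can be identified, and their levels were not measured.
rno-miR-22-5p: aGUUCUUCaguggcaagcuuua
rno-miR-22-3p: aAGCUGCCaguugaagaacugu

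DESeq2 on the recovered reads called further genes with large changes that limma did not. Among the largest rises were those of CSAP1, ASF1B, NS5ATP9 and ELMOD3. ASF1B, a histone chaperone of dividing cells, was at 12.01, 4.31 and 2.59 in the vehicle rats and 77.5, 254 and 18.4 in the tumor-bearing TGFBRi rats, and NS5ATP9, the PCNA-associated factor now named Pclaf, at 4.00, 30.2 and 1.73 in the vehicle rats and 54.8, 453 and 31.05 in the tumor-bearing TGFBRi rats. CSAP1 was at 620.5, 1370.0 and 441 in the vehicle rats and 3687, 49435 and 517 in the tumor-bearing TGFBRi rats, with treated rat 2 far above the others, treated rat 1 above all vehicle rats and treated rat 3 within their range. The 5 largest falls were in ACOT4, HBB, LOC100134871, AGR2 and SCT. ACOT4 was at 276, 84.1 and 4.32 in the vehicle rats and 1.34, 0 and 0 in the tumor-bearing TGFBRi rats and the beta-globin gene HBB at 604, 438 and 6.05 in the vehicle rats and 9.36, 6.56 and 3.45 in the tumor-bearing TGFBRi rats, and each of the 5 was high in vehicle rats 1 and 2 only. Vehicle rat 3 held 1, 0 and 2 reads of LOC100134871, AGR2 and SCT, and against that rat alone these genes were no longer lower.

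Genes of the TGFβ pathway were looked at because the inhibitor acts on its receptor. None of 18 TGFβ target genes was called by limma or edgeR and 1 by DESeq2 (1 higher and 1 lower at an unadjusted p under 0.05, beside 7.46% and 8.73% of all genes, and 7.62% called by DESeq2). Of them 9 were higher and 9 lower, and their median was -0.03, beside -0.26 for all genes, and 0.24 against vehicle rat 3, beside 0.05. With edgeR and DESeq2 the median was 0.50 and 0.41, beside -0.13 and -0.21 for all genes. The summed level of the list, 75336 to 134143 in the vehicle rats and 156463 to 222469 in the treated rats, did not overlap. THBS1, the thrombospondin gene that made up much of that sum in some rats, was at 13042, 8500.5 and 48552 in the vehicle rats and 68203, 18766 and 115001 in the tumor-bearing TGFBRi rats (1.59, adjusted p = 0.247). JUNB, an immediate early transcription factor, was another large part of that sum. It was higher in every treated rat, at 38012, 47631 and 58644 in the vehicle rats and 62949, 174224 and 61921 in the tumor-bearing TGFBRi rats (0.89, adjusted p = 0.397). JUNB held 174224 of the sum of 222469 in treated rat 2, and THBS1 115001 of 213257 in treated rat 3. The gap between the sums thus follows mainly these 2 genes, neither of which passed the test, and is no result about the whole list. CTGF (Ccn2), a target that responds to SMAD and YAP signals, was at 697, 669 and 733 in the vehicle rats and 187, 282 and 312 in the tumor-bearing TGFBRi rats (log2 fold change -1.45 ± 0.48 (SE), adjusted p = 0.140), and the groups did not overlap. PMEPA1, a feedback inhibitor, was at 2398, 3912 and 4435 in the vehicle rats and 1857, 1969 and 2419.6 in the tumor-bearing TGFBRi rats (-0.74, adjusted p = 0.368), and its highest treated rat exceeded the lowest vehicle rat. LTBP2 was higher, at 428, 503 and 297 in the vehicle rats and 763, 951 and 634 in the tumor-bearing TGFBRi rats (0.95, adjusted p = 0.318). Of 23 ligand, receptor and SMAD genes none was called by limma or edgeR and 2 by DESeq2 (4 higher and 1 lower at an unadjusted p under 0.05), 12 were higher and 11 lower (median 0.29, 0.56 with edgeR, 0.48 with DESeq2, and 0.09 against vehicle rat 3). TGFBR1, the receptor kinase that the drug blocks, was at 72.1, 36.7 and 95.1 in the vehicle rats and 377, 106.5 and 302 in the tumor-bearing TGFBRi rats (log2 fold change 1.85 ± 0.62 (SE), adjusted p = 0.143). LTBP3, which anchors latent TGFβ, was at 837, 688 and 604 in the vehicle rats and 1263, 2082 and 1517 in the tumor-bearing TGFBRi rats (1.17, adjusted p = 0.158), and SMURF1, a ubiquitin ligase of the pathway, at 568, 695 and 656 in the vehicle rats and 1568, 761 and 1504 in the tumor-bearing TGFBRi rats (0.93, adjusted p = 0.251). ITGB8, an integrin subunit that activates latent TGFβ, was lower, at 292, 211 and 142 in the vehicle rats and 111, 138 and 128 in the tumor-bearing TGFBRi rats (-0.72, adjusted p = 0.513).

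Genes of luminal state did not all differ one way. On the luminal progenitor list KIT was the 1 called gene of 14, where limma called 0.184% of all genes higher and 0.0283% lower (8 higher, 6 lower, median 0.35, or 0.32 against vehicle rat 3). MFGE8 and SOX10 were also higher in every treated rat, by 1.24 and 1.03, without passing the test (adjusted p = 0.229 and 0.214). In the other direction, WFDC18 was at 7562, 2179 and 339.7 in the vehicle rats and 496, 836 and 200.1 in the tumor-bearing TGFBRi rats (-2.02, adjusted p = 0.391) and was the 1 member called lower by DESeq2, which called 7.62% of all genes. FOLR1 differed by -1.16 (adjusted p = 0.298). LTF was lower without overlap, at low levels in both groups. Without vehicle rats 1 and 2, the difference of WFDC18 was 0.36. On the mature luminal list none of 15 genes was called by limma or edgeR and 1 by DESeq2 (0 higher and 2 lower at an unadjusted p under 0.05), and the median had no stable direction, at -0.44 in the limma fit, 0.21 with edgeR, 0.03 with DESeq2 and 0.44 against vehicle rat 3. AREG, the epidermal growth factor receptor ligand that acts downstream of estrogen receptor, was lower, at 9191, 6289 and 4409.6 in the vehicle rats and 1091, 1309.7 and 3678 in the tumor-bearing TGFBRi rats (log2 fold change -1.87 ± 0.48 (SE), adjusted p = 0.0742). Among 10 milk protein genes limma called none, with 3 higher at an unadjusted p under 0.05, edgeR 1 and DESeq2 2, and the median was 0.04, 0.63 with edgeR, 0.55 with DESeq2 and 0.91 against vehicle rat 3. In basal cells of the same rats the limma median of these milk protein genes was 2.44, beside -0.25 for all genes, so higher values were not particular to luminal cells. CSN1S1, the alpha-S1 casein gene, was higher in every treated rat, at 13786, 13066 and 16328 in the vehicle rats and 116019, 65841 and 32810.2 in the tumor-bearing TGFBRi rats (log2 fold change 2.14 ± 0.53 (SE), adjusted p = 0.0677), and CSN2, beta casein, ranged widely, at 452, 552 and 2299.9 in the vehicle rats and 14977, 1016 and 6091 in the tumor-bearing TGFBRi rats. Of 16 milk fat genes 13 were higher, where 5639 of all 14128 genes were, and 5 were higher without overlap, beside 8.16% of all genes. Their median was 1.16, the highest of the lists in the limma fit with all 3 vehicle rats, but 0.84 with edgeR and 0.80 with DESeq2, where the fibroblast median was higher (1.13 and 1.03). None was called by limma (7 higher at an unadjusted p under 0.05, beside 7.46% of all genes), 1 by edgeR and 3 by DESeq2 (1.85% and 7.62% of all genes). FASN, fatty acid synthase, stood at 1169, 1118 and 1080.4 in the vehicle rats and 2265, 6219.7 and 4846 in the tumor-bearing TGFBRi rats (log2 fold change 1.86 ± 0.45 (SE), adjusted p = 0.0642), and its vehicle rats were alike. BTN1A1, a milk fat globule protein, was at 36.03, 214 and 895 in the vehicle rats and 1528, 1115 and 1746 in the tumor-bearing TGFBRi rats (2.90, adjusted p = 0.176). SREBF1, ACLY and THRSP were higher by 1.49, 1.49 and 1.58 (adjusted p = 0.122, 0.107 and 0.107). Against vehicle rat 3 alone the list's median was 0.28, and that rat had the highest summed level of the list of all 9 luminal libraries (273215), whereas FASN differed by 1.92. ACACB, the called carboxylase of fatty acid metabolism, is not on that list.

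The cell cycle and further lists held no gene called by limma. For 36 S-phase genes the median was 0.16 and 7 were higher and 1 lower without overlap, beside 8.16% and 8.22% of all genes, and for 46 G2/M genes it was 0.24, with 2 higher and 2 lower without overlap. Against vehicle rat 3 these medians were 0.65 and 1.04. At an unadjusted p under 0.05 these lists had 5 and 5 genes, beside 16.2% of all genes, edgeR called 2 and 0 (1.85% of all genes), and DESeq2 called 4 and 2 (7.62% of all genes). With edgeR the medians were 0.45 and 0.20, and with DESeq2 0.38 and 0.13. MCM5, a subunit of the replicative helicase, was at 44.03, 51.8 and 27.7 in the vehicle rats and 172, 534 and 168 in the tumor-bearing TGFBRi rats (2.62, adjusted p = 0.0642), and MCM6 was higher by 2.08 (adjusted p = 0.102). CDCA8, a chromosomal passenger protein of mitosis, was at 76.1, 60.4 and 28.5 in the vehicle rats and 77.5, 415 and 114 in the tumor-bearing TGFBRi rats, with rat 2 the highest of the treated rats as for MCM5. IL33, an alarmin on the epithelial defence list, was lower with even groups, at 3839, 3920.2 and 4201 in the vehicle rats and 1033, 1059 and 1298 in the tumor-bearing TGFBRi rats (log2 fold change -1.82 ± 0.44 (SE), adjusted p = 0.0642), whereas that list of 18 genes had a median of 0.19, or 0.10 against vehicle rat 3. In the p53 list AEN and GADD45A were lower without overlap (-2.04 and -1.05, adjusted p = 0.0703 and 0.203). STAT2, DHCR7, TJP3, EGR2 and PER1 were higher without overlap, by 2.11, 1.96, 2.29, 2.69 and 1.73, with adjusted p-values of 0.0611 to 0.129. They are single members of the interferon response, cholesterol synthesis, epithelial junction, immediate early and circadian clock lists. On these lists 2, 3, 1, 2 and 2 genes were higher and 0, 2, 1, 0 and 1 lower without overlap, beside 8.16% and 8.22% of all genes. Of the 22 interferon response and the 22 cholesterol synthesis genes, 15 each were lower. HSPB1 and CLDN3 were lower without overlap (-1.67 and -1.12), and HSPA1A was higher by 1.25, with 1 treated rat far above the others (2564, 15030.1 and 3620.2). Ribosomal protein genes had a median of -1.74 over 77 genes and respiratory chain genes of -1.36 over 66, with 75 and 53 lower and 60 and 34 called lower by DESeq2. Against vehicle rat 3 these medians were -0.12 and 0.28. The medians of the interferon response (22 genes), MHC class II (6), immediate early (18), heat shock (12), cholesterol synthesis (22), epithelial junction (19), estrogen and progesterone response (15) and circadian clock (14) lists lay between -0.58 and 0.38, and between -0.58 and 0.73 against vehicle rat 3.

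**Figure D4:**
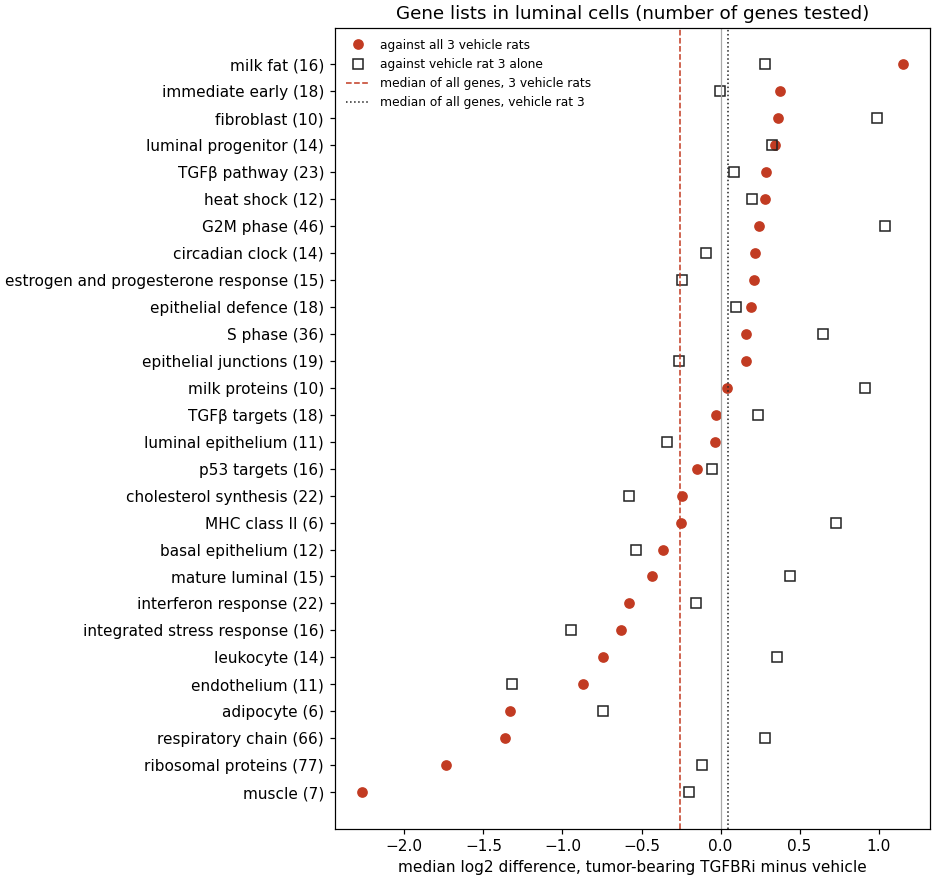
Median log2 difference of each gene list between tumor-bearing TGFBRi rats and all 3 vehicle rats (filled circles) or vehicle rat 3 alone (open squares), with the medians of all genes as vertical lines (-0.26 and 0.05). The integrated stress response list lies below the median of all genes in both comparisons (-0.63 and -0.95). So do endothelium (-0.87 and -1.32), adipocyte (-1.33 and -0.74), basal epithelium (-0.36 and -0.53), muscle (-2.27 and -0.20), interferon response (-0.58 and -0.16) and ribosomal protein genes (-1.74 and -0.12). Once vehicle rats 1 and 2 are set aside, muscle and ribosomal protein genes lie much nearer the median of all genes. Respiratory chain genes (-1.36 and 0.28) then lie above it.

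The tumor-free TGFBRi rats were compared with the same vehicle rats, so that the next values share their controls with those above. There limma called 134 genes (0.948%), 122 higher and 12 lower, whereas edgeR called 512 (217 higher) and DESeq2 1364 (502 higher), so that the excess of higher calls held for limma only. The median log2 fold change of all genes was -0.32 in this comparison and 0 without vehicle rats 1 and 2. Of the 26 raised genes, 26 were higher in tumor-free rats as well, by 0.90 to 3.72, and 18 passed the test, while the 4 lowered genes differed by -2.39 to -1.23 and none passed. Against vehicle rat 3 these ranges were 0.36 to 2.41 and -0.81 to -0.01. C4B was 3.72 higher in the tumor-free rats and 2.72 higher in the tumor-bearing ones. PDLIM5 differed by -1.37 and -2.90 from vehicle, and DDIT3 by -1.23 and -2.18. Tumor-bearing and tumor-free TGFBRi rats were then compared directly. The difference does not use the vehicle rats' levels, but the vehicle rats enter the fit's estimate of the spread. No gene passed the limma test with them (872 at an unadjusted p under 0.05) or with only the 6 rats compared (1124). In this comparison edgeR called 0 and DESeq2 called 12, 9 of them higher in tumor-bearing rats. The largest shift among the lists was in G2/M genes, whose median was 1.37 higher in tumor-bearing rats, beside 0.05 for all genes, and the S-phase median was 0.62 higher. The summed level of the G2/M genes, which abundant members dominate, was not higher, at 17295 to 20766 in tumor-bearing and 19894 to 34207 in tumor-free rats. MCM6 was at 246, 411 and 430.1 in tumor-bearing and 124, 121 and 40.1 in tumor-free TGFBRi rats, a difference of 2.04 ± 0.59 (SE; adjusted p = 0.725). ASF1B was at 77.5, 254 and 18.4 and 2.03, 4.31 and 2.00. The medians of the integrated stress response, endothelium and leukocyte lists were lower in tumor-bearing rats (-1.10, -1.13 and -0.83). The part of endothelial and leukocyte RNA in these differences was not tested. Against vehicle, the stress response median was 0.42 in the tumor-free rats, beside -0.32 for all genes, and -0.63 in the tumor-bearing ones. CHAC1 was at 1460.0, 538 and 1832 in tumor-bearing and 4528, 2839.9 and 2461 in tumor-free rats (-1.49 ± 0.47, adjusted p = 0.725). FASN was at 2265, 6219.7 and 4846 and 1021, 1720.5 and 2635 (1.29, adjusted p = 0.732).

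Basal cells from the same tumor-bearing rats were compared in the same way, and limma called 174 genes (1.31%), edgeR 266 and DESeq2 1049. None of the 30 luminal genes was among those of limma and edgeR, and 1 was called by DESeq2 (SARDH). Of the 26 raised luminal genes 11 were higher and 15 lower in basal cells, with a median of -0.13, and of the 4 lowered genes 2 were higher and 2 lower. SARDH and DEF8 were higher in the basal cells of every treated rat than of any vehicle rat, by 1.06 and 1.12 (adjusted p = 0.108 and 0.163), and NT5DC2 was higher by 1.45 with overlap (adjusted p = 0.314). PDLIM5, lowered in luminal cells, and COL16A1, raised there, were lower in the basal cells of every treated rat (-0.74 and -0.67, adjusted p = 0.235 and 0.138). In this basal comparison, ribosomal protein and respiratory chain genes had medians of 0.84 and 1.21, beside -0.25 for all genes. The part of uneven basal libraries in the basal results was not tested. The difference between the luminal and the basal effect was tested within rats. It passed for 383 genes (2.65%) with limma, 671 (4.64%) with edgeR and 1332 (9.2%) with DESeq2. Limma called 19 without the block on rat and 0 when the variance trend was taken over the mean difference in place of the mean level. The test with the block passed for 16 of the 26 raised and 3 of the 4 lowered luminal genes with limma. These genes had been called for their luminal difference, which is one side of the difference tested, so this count is not a result about them. COL16A1 had the smallest p, with a luminal effect 2.95 ± 0.37 (SE) above the basal one (adjusted p = 0.00993). FABP5 differed by -2.56 in luminal and 0.48 in basal cells, a difference of -3.04 ± 0.52 (adjusted p = 0.0296). SLC4A2, ACE and LRP5 differed by -0.23, -0.42 and -0.93 in basal cells, and their differences from the luminal effect were 3.08, 3.46 and 3.39 (adjusted p = 0.0246, 0.0246 and 0.0296). For NOTCH3 (0.0690) and KIT (0.106) the adjusted p missed the threshold. Without vehicle rat 1 or 2 singly this test called 2 and 0 genes. Without both, the differences of FABP5, SLC4A2 and ACE were smaller, at -1.71, 2.61 and 2.26, while those of COL16A1 and LRP5 were 3.04 and 3.43.

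In young SD rats on day 0, directly after dosing, 4 treated rats were compared with 4 vehicle rats. The labels call 2 of the treated rats weak and 2 strong responders, and they were pooled here. With limma, no luminal gene passed (244 of 12584 at an unadjusted p under 0.05); edgeR called 0 and DESeq2 1. The 26 raised genes had day 0 differences of -0.31 to 0.94 with a median of 0.15, 18 of them above 0, and the 4 lowered genes of -0.27 to 0.40. NOTCH3 was 0.02 ± 0.66 (SE) at day 0, ACE 0.94 ± 0.68 and DDIT3 0.06 ± 0.32. The effect at 87 days minus that at day 0 did not pass for any gene with limma (1592 at an unadjusted p under 0.05), whereas edgeR called 0 and DESeq2 164, and limma called 539 without vehicle rat 3. These rats also differed in age and in exposure to NMU, which cannot be told apart from the time since dosing. In EPCAM+ tumor cells of the NMU experiment, limma called 0 genes between TGFBRi and vehicle (278 at an unadjusted p under 0.05), edgeR 0 and DESeq2 6. The 26 raised genes had tumor differences of -1.14 to 1.16 and the 4 lowered genes of -0.12 to 0.62.

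**Figure D5:**
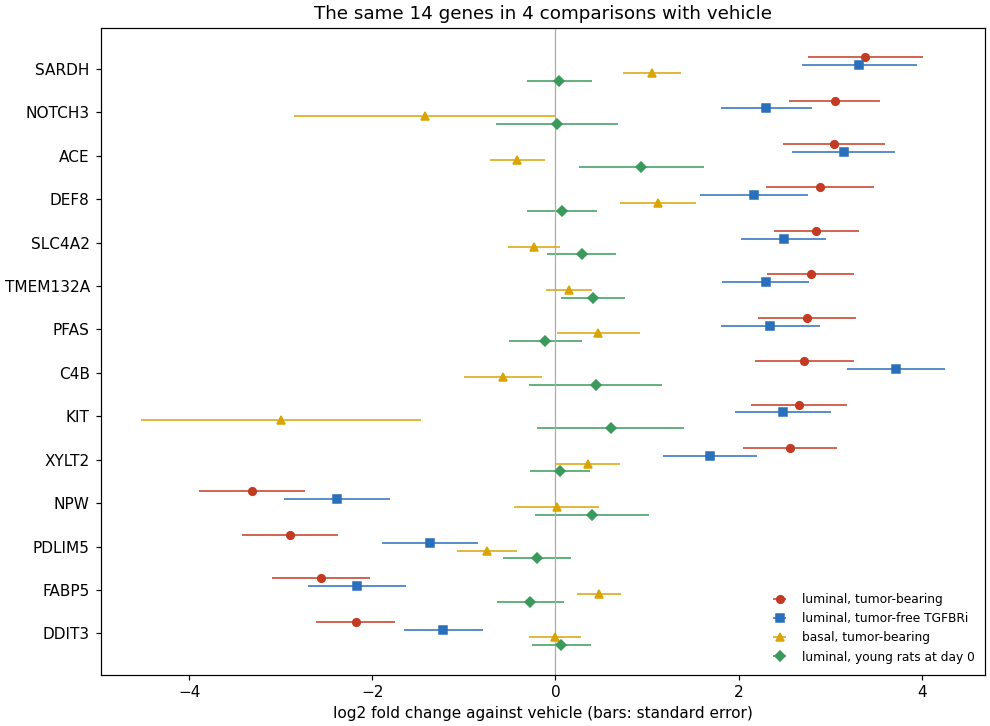
Log2 fold change against vehicle, with standard errors, of 14 genes called in luminal cells of tumor-bearing rats, shown for luminal cells of tumor-bearing rats, luminal cells of tumor-free TGFBRi rats (the same vehicle rats), basal cells of tumor-bearing rats and luminal cells of young rats at day 0. The first 2 comparisons lie on the same side of 0 for all 14 genes, while day 0 values reach at most 0.94 (ACE) and basal values lie within 1 log2 unit of 0 except SARDH (1.06), DEF8 (1.12), NOTCH3 (-1.42) and KIT (-3.001), the last 2 with wide errors.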

How the data were processed

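Luminal cells were sorted as CD24+CD29low CD31-CD45- from digested glands, and RNA was amplified with a SMARTer low-input kit and sequenced on a NextSeq. The authors aligned reads to rn6 with STAR 2.5.1b, counted them per gene with HTSeq without strand and divided by DESeq2 1.30.1 size factors. The deposited signal values are therefore normalized counts, with 1 table per sample and 14655 genes in the luminal tables. All values above 0 were whole multiples of 1 step per library (tolerance 0.001), so reads were recovered as value divided by step. Library totals are given with the results, and vehicle rat 1 had the lowest depth of the luminal NMU libraries, at 6952044 reads.

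Groups were taken from the labels, replicates were numbered in accession order, and each sample was 1 rat. The test was limma 3.58.1 (trend, robust; R 4.3.3) on log2(normalized count + 1), over genes summing to at least 10, with Benjamini-Hochberg adjustment over all genes and a threshold of 0.05. All 9 luminal NMU samples entered 1 fit. The added 1 shrinks log2 fold changes of low genes, which as differences of mean logs can still exceed those of the count tools. Alternatives were edgeR 4.0.16 quasi-likelihood and DESeq2 1.42.0 on recovered reads, other scalings, filters and pseudocounts, and leaving out libraries. Each step was tested on simulated data. That test found no changed genes for within-rat differences when the variance trend followed the mean difference, so the trend followed the mean level there. The simulated counts were independent, with the same spread setting for all genes and libraries, no rat effect and no outlying libraries. The simulation therefore cannot show which trend suits the real pairs. The choice was made after the simulation, and the luminal minus basal test calls 383 genes with the mean level and 0 with the mean difference. The luminal and basal samples of a rat were paired by the animal in the labels, and their deviations from group means correlated at -0.003 to 0.339. Leaving out vehicle rats 1 and 2 was added after seeing the data.

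Named genes were the 10 called genes per direction with the largest change (mean of at least 50 reads, no overlap of groups), the 10 per direction with the smallest unadjusted p (mean of at least 50 normalized counts, no overlap), list genes, and the 5 largest per direction called by DESeq2 and not by limma. Some genes that meet these rules are not reported here. The other called genes were named after their values were seen. Members and lists were chosen with earlier results of these data known. The other 209 files, of other experiments or of other cell fractions or samples of these, were not used here. Mature microRNA sequences came from RefSeq.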

Additional observations from a re-analysis of the deposited data

Results flagged for a closer look

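For 23 of the 36 genes looked at, the difference between tumor-bearing TGFBRi and vehicle rats was another in luminal than in basal cells of the same rats (limma on differences within rats, adjusted p of 0.00993 to 0.0484), beside 2.65% of all genes. These genes had been named for their luminal difference, which is one side of the difference tested, so the share is not a result about them. The test called 0 genes without vehicle rats 1 and 2, and 0 with the variance trend over the mean difference. The 16 genes with a higher luminal effect included C4A (3.49 log2 units above the basal effect), ACE (3.46), LRP5 (3.39), C4B (3.30), ECE1 (3.13), SLC4A2 (3.08) and COL16A1 (2.95). The same difference was 2.64 for TMEM132A, 2.56 for GPC1, 2.53 for DUOX1, 2.28 for MKNK2, 2.25 for both DCTN1 and TYRO3, 1.96 for ATG9A, 1.91 for RPS6KA4 and 1.76 for SLC27A1. The 7 genes with a lower luminal effect were NPW (-3.33), FABP5 (-3.04), the MIR22 row (-2.96), CRYAB (-2.75), UTP23 (-2.46), TIMM8A1 (-2.36) and DDIT3 (-2.18). COL16A1 was the 1 gene among them whose groups stood apart in both cell types and in opposite directions. Its basal values were 9138, 10553 and 13882 in the vehicle rats and 7314, 8376 and 5398 in the tumor-bearing TGFBRi rats. Against vehicle rat 3 alone the difference was 3.04 for COL16A1, 3.43 for LRP5, 2.80 for DUOX1 and 2.43 for TYRO3, but 1.42 for C4B, 1.13 for GPC1 and 1.09 for SLC27A1. The uneven vehicle luminal libraries are on one side of every one of these differences. On the other side are the basal libraries, whose ribosomal protein and respiratory chain shares were highest in the tumor-bearing TGFBRi rats. The part of either in these differences was not tested.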

How the results depend on the processing

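Counts of called genes depended on the processing. The 30 called luminal genes became 261 with edgeR (125 higher), 128 with edgeR and DESeq2 size factors (63 higher), 1077 with DESeq2 (437 higher), 96 after TMM scaling, 163 with all 17 luminal samples (119 higher), 14 with no filter on low values, 1 with only the 6 rats compared, and 0 with a pseudocount of 8, a mean of at least 50, no variance trend and no robust estimation, or without vehicle rats 1 and 2. Leaving out 1 library gave 0 to 1522. All 30 genes kept their direction under every setting, and TMM scaling and DESeq2 called all 30. The groups of these genes did not overlap, so leaving out libraries could not turn a direction. Several settings also repeat the same fold changes, so the kept directions are no measure of stability. LOC100134871, AGR2, SCT and WFDC18, called by DESeq2 and not by limma, turned to 1.05, 1.72, 0.79 and 0.36 without vehicle rats 1 and 2. Tumor-free TGFBRi rats against vehicle, 134 genes, gave 512 with edgeR, 1364 with DESeq2 and 0 without vehicle rats 1 and 2. Tumor-bearing against tumor-free TGFBRi rats gave 12 genes with DESeq2 and 0 to 1 when a library was left out. The luminal minus basal effect, 383 genes with the replicate block, gave 19 with no replicate block, 671 with edgeR, 1332 with DESeq2, 620 at a mean of at least 50, 0 with the trend over the mean difference or without vehicle rats 1 and 2, and 0 to 987 when a library was left out. The effect at 87 days minus that at day 0 gave 164 with DESeq2 and 0 to 539 when a library was left out. The sort check gave 2893 genes, 1673 without vehicle rats 1 and 2 and 1854 with the trend over the mean difference. Causes of these shifts were not tested. Among the median differences of gene lists, 39 values moved by more than 1 SD and 521 did not. That SD was the spread of a list's level between libraries within the vehicle and tumor-bearing TGFBRi groups, so uneven vehicle libraries widen it. Several settings leave the fold changes as they are, so these counts do not measure stability. Vehicle rat 1 had the fewest reads of the luminal NMU libraries (6952044) and 13791 genes above 0, against 11572 to 13419 in the others.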
